A study of Mus musculus with 32 samples.

Results

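The Hox genes encode homeodomain transcription factors that pattern the body axis in the embryo and are used again in blood-forming cells. In mouse they lie in 4 clusters on separate chromosomes, HoxA, HoxB, HoxC and HoxD, and genes at matching places in different clusters form paralogue groups, numbered from the 3′ end (early and anterior) to the 5′ end (late and posterior). The 38 Hox genes analysed here were taken by symbol, through the Ensembl identifiers, from the 41388 genes each table lists, whatever their level. HoxA holds 10 of them, HoxB 10, HoxC 9 and HoxD 9.

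RNA-seq was done on 24 libraries of 2 sorted bone marrow populations from C57BL/6 mice. In the Vav cohort (8 weeks old) the Jarid2-KO and the control groups each gave multipotent progenitors (MPP) and haematopoietic stem cells (HSC), with 3 libraries in each of the 4 groups. Vav-CRE is active across blood cells. In the Mx1 cohort (10 weeks old, labelled as 2 months after pIpC) the groups were Jak2V617F with Jarid2KO (the double mutant), Jak2V617F, and control, each as MPP and as HSC, with 2 libraries in each of the 6 groups. Mx1-CRE is induced by pIpC, an inducer of interferon, and Jak2V617F is an activating kinase mutation of myeloproliferative neoplasms. Controls of both cohorts are labelled wild-type together with the Cre driver of their cohort. The gate was lineage-negative, cKit+, Sca1+ and CD48-, with CD150+ cells taken as HSC and CD150- cells as MPP. Marrow was pooled from several male and female mice, and the protocol gives 2 different pool sizes, so the number of mice per library is uncertain, and a p-value here reflects only how much pools differed. The labels of the individual samples were followed for Jak2V617F, which the design text lists as Jarid2-KO. The 8 ChIP samples of the series were not analysed here.

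In adult blood formation, Hox genes of the HoxA and HoxB clusters are most active in the earliest cells and are shut down as cells mature. Hoxa9 and its DNA-binding partner Meis1 are known for sustaining stem and progenitor cells and for driving acute leukaemia when they stay on. Hoxb4 is known for expanding HSC in culture, and Hoxb5 for marking long-term HSC in mouse. Polycomb repressive complex 2 (PRC2), of which Jarid2 is an accessory subunit, is a classical repressor of Hox genes, and the MLL protein, encoded by Kmt2a, is a classical activator.

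Total counts ranged over 10473535 to 27232379 in the Vav cohort and over 7852483 to 20724168 in the Mx1 cohort. Libraries were of uneven cell content. Slamf1 (CD150) was at 82.4 to 95.5 CPM (read counts scaled to the library total) in Vav Jarid2-KO HSC and 57.4 to 66.1 CPM in Vav control HSC, against 2.19 to 14.1 CPM in all Vav MPP libraries, as the gate would give. In the Mx1 cohort Slamf1 was at 30.8 and 124 CPM in double mutant HSC but at 5.04 and 12.7 CPM in Jak2V617F HSC and 0.196 and 5.21 CPM in control HSC, so those HSC libraries lack their defining marker at the level of the Vav cohort. All 9 granulocyte-monocyte markers listed were at 1 CPM or more in every Mx1 library, and their sum was 2064 to 5859 CPM in the double mutant, 14110 to 34381 CPM in Jak2V617F and 12203 to 50644 CPM in Mx1 controls, against 932 to 17623 CPM in Vav libraries, where the highest was Jarid2-KO MPP replicate 1. A list of 20 heart muscle genes held 0.560% to 9.72% of the counts of Mx1 libraries and at most 0.0184% in Vav libraries. The sum of 11 stroma and endothelium markers was 427 to 4548 CPM in Mx1 libraries and 116 to 601 CPM in Vav libraries. The Jarid2 gene itself was not lower in the knockout (log2 fold change 0.06, SE 0.22, in HSC and 0.11, SE 0.22, in MPP, with adjusted p 0.914 and 0.837). Counts sum all of its exons, so they do not check a deletion of part of the gene.

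To show the clusters at the sequence level, 120 bases just upstream of a start annotated by RefSeq are printed for 3 genes with high RNA (Hoxa9, Hoxa10, Hoxb4) and 2 genes with almost none (Hoxa13, Hoxd13), chosen after their levels were known. Sequences are from RefSeq on GRCm38.p6, 5′ to 3′ on the gene's strand, with each CG dinucleotide in capitals. Hoxa9 is at chr6:52227371-52227490 (minus strand), which lies inside the gene as counted (chr6:52223100-52231089), downstream of the start that the deposited annotation gives it, Hoxa10 at chr6:52240855-52240974 (minus, upstream of one of its 2 annotated starts), Hoxb4 at chr11:96318147-96318266 (plus), Hoxa13 at chr6:52260881-52261000 (minus) and Hoxd13 at chr2:74668105-74668224 (plus).
Hoxa9: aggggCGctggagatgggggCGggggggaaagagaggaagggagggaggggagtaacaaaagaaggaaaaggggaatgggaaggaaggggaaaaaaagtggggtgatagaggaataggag
Hoxa10: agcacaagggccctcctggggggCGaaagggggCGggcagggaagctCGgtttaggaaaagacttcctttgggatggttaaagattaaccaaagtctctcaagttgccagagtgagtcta
Hoxb4: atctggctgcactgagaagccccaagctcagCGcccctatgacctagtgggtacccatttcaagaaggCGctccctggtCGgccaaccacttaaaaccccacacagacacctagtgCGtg
Hoxa13: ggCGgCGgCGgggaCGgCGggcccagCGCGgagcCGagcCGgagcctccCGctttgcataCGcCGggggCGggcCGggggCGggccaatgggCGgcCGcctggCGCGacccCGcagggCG
Hoxd13: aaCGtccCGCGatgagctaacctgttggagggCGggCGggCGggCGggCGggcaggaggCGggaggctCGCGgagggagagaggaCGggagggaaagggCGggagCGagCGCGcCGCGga

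These stretches hold 2 CG dinucleotides in Hoxa9, 3 in Hoxa10 and 4 in Hoxb4, against 21 in Hoxa13 and 18 in Hoxd13. The 5 are not typical of their classes. Promoter windows (250 bases before to 50 after the start) were found for 22 of the 38 genes, 24 windows in all. By the Vav classes defined in the next paragraph, expressed genes had 4 to 29 CG per window (median 13, 8 windows), trace genes 10 to 26 (median 13, 3 windows) and silent genes 4 to 45 (median 20, 13 windows). The ranges of expressed and silent genes overlap, and the median of all 24 Hox windows was 14.5, against 7 over 32851 windows of all genes. The motif TGATTNAT, bound by Hox and Pbx proteins together, was in 2 of 24 Hox windows (8.33%) and in 3.22% of all windows, and TGACAG, bound by Meis proteins, was in 2 of 24 (8.33%) and in 19.2% of all, both searched on both strands.

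The first question was which Hox genes these cells transcribe at all. A gene was called expressed where every library of at least 1 group reached 1 CPM, silent where every library of the cohort had fewer than 10 counts, and trace where neither held. In the Vav cohort 12 genes were expressed, 7 were trace and 19 were silent. The expressed genes were Hoxa2, Hoxa3, Hoxa5, Hoxa7, Hoxa9 and Hoxa10 and, in the HoxB cluster, Hoxb2, Hoxb3, Hoxb4, Hoxb5, Hoxb6 and Hoxb9. No gene of HoxC or HoxD was expressed. HoxC had trace Hoxc8 (at most 19 counts) and Hoxc10 (at most 32 counts) and 7 silent genes, and all 9 HoxD genes were silent. All 9 genes of paralogue groups 11 to 13, the posterior end of every cluster, were silent in the Vav cohort.

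**Figure D1:**
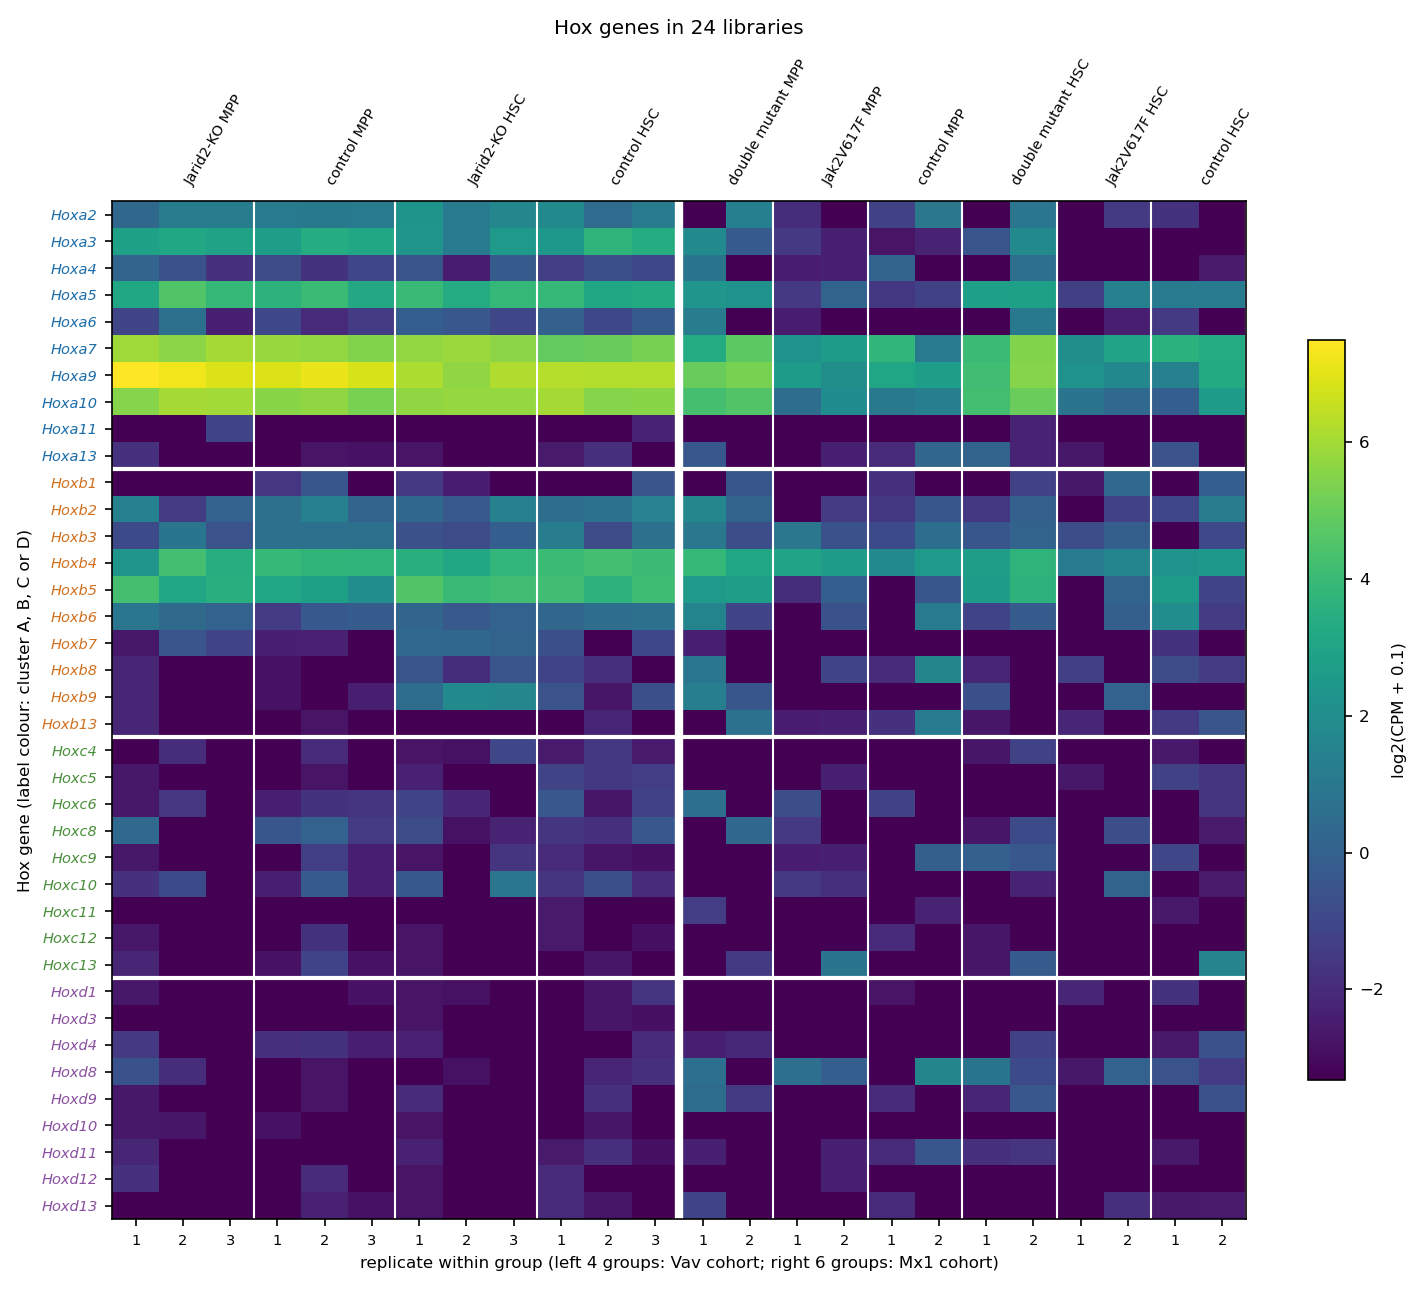
Level of each of the 38 Hox genes (rows, in cluster order from the 3′ end) in each of the 24 libraries (columns), as log2(CPM + 0.1). The brightest rows are Hoxa5, Hoxa7, Hoxa9, Hoxa10, Hoxb4 and Hoxb5, the HoxC and HoxD rows are dark in the 12 Vav libraries, and among Mx1 libraries the 4 of the double mutant are the brightest in Hoxa9 and Hoxa10.

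Silent meant close to nothing rather than low. The largest count of any silent gene in any Vav library was 9, reached by Hoxc6 and Hoxd8. In HoxA, Hoxa11 peaked at 4 counts and Hoxa13 at 3, and in HoxB, Hoxb13 peaked at 2. In HoxC the peaks were 8 for Hoxc5, 7 for Hoxc4 and Hoxc13, 6 for Hoxc9, 4 for Hoxc12 and 1 for Hoxc11. In HoxD the other genes peaked at 6 (Hoxd1), 4 (Hoxd4), 3 (Hoxd9, Hoxd11 and Hoxd12), 2 (Hoxd13) and 1 (Hoxd3 and Hoxd10). Seen per length, the median of mean RPKM (CPM per kilobase of exon) was 3.13 for the expressed genes, 0.217 for trace genes and 0.0195 for silent genes. The classes overlap per length, since their limits are set in CPM and counts. Mean RPKM ranged over 0.260 to 18.7 for expressed, 0.0656 to 0.641 for trace and 0.0029 to 0.0803 for silent genes. The trace gene Hoxa6 (0.641) lay above the expressed genes Hoxb6, Hoxb2, Hoxb9 and Hoxb3. A count of 3, the most that a count of 0 allows, is worth 0.110 to 0.286 CPM in these libraries, so lower levels were not detectable. Those limits cover counting error only.

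Levels between genes can be set side by side in RPKM. Over the 12 Vav libraries the order of mean RPKM was Hoxa9 (18.7, SD 7.17), Hoxa10 (16.1, SD 2.58), Hoxa7 (13.01, SD 2.99), Hoxa5 (7.03, SD 2.28), Hoxb4 (5.21, SD 1.60) and Hoxb5 (4.84, SD 2.14). The ranges of every pair of neighbours in this order overlapped. Hoxa9 was above Hoxa10 in 6 of 12 libraries, and Hoxb4 above Hoxb5 in 7 of 12, so neither pair has a set order. Hoxa7 was above Hoxa5 and Hoxb5 was above the next gene, Hoxa2 (1.42), in 12 of 12. These 6 leading genes held 89.8% to 95.6% of all Hox counts of a Vav library. Every other expressed gene was low: Hoxa3 had a mean RPKM of 1.25, Hoxb6 0.526, Hoxb2 0.451, Hoxb9 0.300 and Hoxb3 0.260.

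Some of these low values are uncertain because genes overlap and no source used here states that counting used strand. Of the 38 members 15 share exonic bases with another gene. Hoxb3 shares 52.9% of its exonic bases with the antisense gene Hoxb3os, Hoxb2 27.3% with it, and Hoxa3 27.1% with 4 antisense genes and the same-strand gene Gm28308. Hoxa9 shares only the 85 bases of the miRNA gene Mir196b, which was at 0 counts in all 24 libraries.

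In the Mx1 cohort the same 6 genes led by mean RPKM, at a lower level, and held 50.9% to 91.9% of the Hox counts of a library. Hoxb5 reached 1 CPM in both libraries of a group only in the double mutant. Here 7 genes were expressed (Hoxa5, Hoxa7, Hoxa9, Hoxa10, Hoxb2, Hoxb4 and Hoxb5), all of them also expressed in the Vav cohort, with 17 trace and 14 silent. Of the 12 Vav-expressed genes the 5 others (Hoxa2, Hoxa3, Hoxb3, Hoxb6, Hoxb9) were trace in Mx1. Per length the Mx1 classes overlapped too, with mean RPKM of 0.226 to 3.50 for expressed and 0.0717 to 0.507 for trace genes. Silent in both cohorts were 12 genes: Hoxa11, Hoxc4, Hoxc5, Hoxc11, Hoxc12, Hoxd1, Hoxd3, Hoxd4 and Hoxd10 to Hoxd13, and Hoxd3 and Hoxd10 had 0 counts in all 12 Mx1 libraries. Of the silent Vav genes 7 (Hoxa13, Hoxb13, Hoxc6, Hoxc9, Hoxc13, Hoxd8, Hoxd9) became trace in Mx1 through scattered libraries, for instance 40 counts of Hoxc13 in control HSC replicate 2, and 28 of Hoxd8 in control MPP replicate 2 and 29 in double mutant HSC replicate 1. Hoxb7 and Hoxc8 were trace in Vav and silent in Mx1, with at most 3 and 9 counts. Hoxa4, Hoxa6, Hoxb1, Hoxb8 and Hoxc10 were trace in both. The Mx1 expressed count depends on single libraries, since a group there has 2: it was 14 without control MPP replicate 1, 11 without double mutant HSC replicate 1 and 17 without double mutant MPP replicate 2, and the trace count was 10 without control MPP replicate 1 and 7 without double mutant MPP replicate 2.

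Summed by cluster, the shares of HoxA and HoxB in the Vav libraries differed between cell types. HoxA made up 89.9% to 91.8% of Hox counts in the 6 MPP libraries and 80.9% to 85.1% in the 6 HSC libraries, and HoxB 8.18% to 9.69% in MPP and 14.8% to 18.1% in HSC. The ranges of the cell types do not overlap for either cluster. The 2 shares are not independent, since HoxA and HoxB together held nearly all Hox counts. Hoxa9 alone held 40.1% to 53.1% of Hox counts in MPP and 24.4% to 35.2% in HSC. The shares of Hoxa5, Hoxa7 and Hoxa10 overlapped between the cell types. In CPM, HoxA summed to 294 ± 18.2 in Jarid2-KO MPP, 247 ± 30.1 in control MPP, 194 ± 13.5 in Jarid2-KO HSC and 186 ± 11.1 in control HSC (SD, n = 3 each). HoxB summed to 28.3 ± 3.49, 24.2 ± 3.37, 37.5 ± 5.77 and 38.6 ± 3.70 CPM in the same order of groups. HoxC never passed 1.02% and HoxD never 0.390% of Hox counts in the Vav cohort. In the Mx1 cohort HoxA held 66.2% to 82.1% in the double mutant, 50.5% to 75.7% in Jak2V617F and 41.5% to 82.3% in controls, with overlap between all 3 genotypes.

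**Figure D2:**
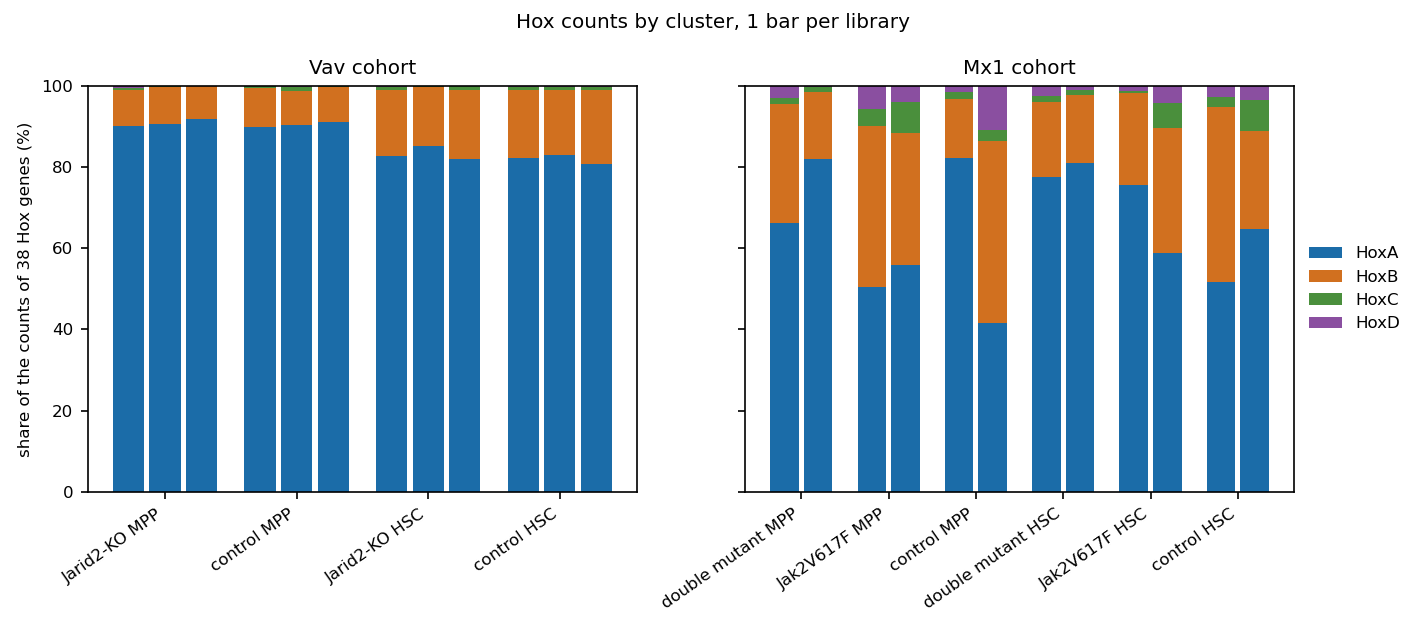
Share of the counts of the 38 Hox genes held by each cluster (%), 1 stacked bar per library, Vav cohort left and Mx1 cohort right. In the Vav cohort the HoxA part is 89.9% to 91.8% in MPP and 80.9% to 85.1% in HSC, and in the Mx1 cohort the bars vary from library to library.

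The next comparison set MPP against HSC in the Vav cohort. Hoxa9, the leukaemia-linked 5′ HoxA gene, was higher in MPP in both genotypes, and Hoxb9, its HoxB paralogue, was nearly absent from MPP. Hoxa9 was at 179, 154 and 119 CPM in Jarid2-KO MPP, against 70.8, 51.1 and 72.4 CPM in Jarid2-KO HSC. In controls it was at 120, 144 and 114 CPM in MPP, against 78.7, 74.8 and 74.8 CPM in HSC. All 6 MPP libraries stood above all 6 HSC libraries. The granulocyte-monocyte sum was 3502 to 17623 CPM in MPP and 932 to 6523 CPM in HSC, and its part in the Hoxa9 difference was not tested.

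Taking the mean over both genotypes in edgeR's quasi-likelihood test, 2 of 17 Hox genes tested passed an adjusted p of 0.05, where 3.44% of all 15818 genes did (1.54% higher and 1.9% lower in MPP). Hoxa9 rose by a log2 of 0.95 (SE 0.14, adjusted p = 0.00127), and this call held in all 18 alternative fits. Within Jarid2-KO, 2 of 17 passed, against 0.525% of all genes, with Hoxa9 at 1.24 (SE 0.20, adjusted p = 0.0092). That call was lost without Jarid2-KO HSC replicate 2 (1.10, adjusted p = 0.0613) and in a fit of only the groups compared (1.24, adjusted p = 0.158). Within controls 0 of 17 passed, against 1.17% of all genes, with 4 at an unadjusted p under 0.05 and 1 called by DESeq2. Of all 15818 genes 1335 were at an unadjusted p under 0.05 in controls. Hoxa9 was at 0.66 there (SE 0.19, adjusted p = 0.159), and passed without Jarid2-KO MPP replicate 1 (0.66, adjusted p = 0.0435) and with only the groups compared (0.67, adjusted p = 0.0376). The difference between the genotypes' MPP against HSC effects on Hoxa9 was 0.57 (SE 0.27, adjusted p = 1.00), so an unequal effect was not shown.

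Hoxb9 gave 2, 0 and 0 counts in Jarid2-KO MPP, against 26, 82 and 56 counts in Jarid2-KO HSC. In controls it gave 1, 0 and 2 counts in MPP, against 8, 1 and 14 counts in HSC. Its RNA was thus close to the floor in every MPP library, and control HSC replicate 2 overlapped with them. As a ratio of summed counts per total, Hoxb9 in Jarid2-KO MPP was 0.0170 of its level in Jarid2-KO HSC (exact 95% interval 0.00205 to 0.0625, counting error only), and in control MPP 0.117 of control HSC (0.0224 to 0.386). Over both genotypes edgeR called it lower in MPP with an adjusted p of 0.00743 in the fit and in all 18 alternatives, at a fitted log2 of -4.30 (SE 0.80) that depends on the prior count. Within Jarid2-KO the adjusted p was 0.0439 (-5.66, SE 1.16). This call was kept, among the 12 fits that leave out a library, only without control HSC replicate 2 or Jarid2-KO MPP replicate 1, with adjusted p from 0.0530 to 0.193 in the other 10. With only the groups compared it was 0.145.

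Hoxb5, the long-term HSC marker, was at 19.8, 8.18 and 10.98 CPM in Jarid2-KO MPP, against 23.0, 15.6 and 18.1 CPM in Jarid2-KO HSC. Controls had 7.98, 6.99 and 3.84 CPM in MPP, against 17.9, 12.5 and 17.2 CPM in HSC. Control MPP lay wholly below control HSC, while Jarid2-KO MPP replicate 1 lay within the range of the HSC. The mean difference missed the threshold (-0.96, SE 0.25, adjusted p = 0.0549) and the control difference did too (-1.40, SE 0.36, adjusted p = 0.0954). Without Jarid2-KO MPP replicate 1, the library with the highest granulocyte-monocyte sum of the cohort, both passed (-1.20 with adjusted p = 0.00355, and -1.40 with adjusted p = 0.0123). Both also passed by DESeq2 (adjusted p = 0.00755 and 0.00899) and with no filter on low counts (0.00470 and 0.0108), and the control difference passed with only the groups compared (0.0328). That library also had the highest sum of 11 stroma and endothelium markers, at 601 CPM against 116 to 226 CPM in the other Vav libraries. Its erythroid marker sum (796 CPM) was the highest of the cohort, and its sum of 8 HSC markers (883 CPM) the lowest. The part of these RNAs in the Hoxb5 result was not tested.

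The other leading genes did not separate the cell types by the test. Hoxa10, the neighbour of Hoxa9 on its 5′ side, was at 45.7, 65.6 and 63.8 CPM in Jarid2-KO MPP and 47.8, 52.0 and 39.5 in control MPP, against 51.1, 54.1 and 54.9 in Jarid2-KO HSC and 65.0, 45.8 and 46.7 in control HSC. Its levels overlapped in all groups. Hoxb4 was at 4.83, 18.8 and 10.5 CPM in Jarid2-KO MPP and 14.8, 13.3 and 13.1 in control MPP, against 11.01, 8.57 and 14.3 in Jarid2-KO HSC and 16.2, 18.2 and 16.8 in control HSC. Control MPP lay below control HSC, without passing the test. Hoxa5 spanned 8.77 to 23.2 CPM in MPP and 8.90 to 15.9 CPM in HSC. Over the 17 Hox genes tested the median log2 difference between MPP and HSC was -0.18, against 0.02 over all genes. In bulk samples fewer cells that transcribe a gene and less RNA per cell cannot be told apart.

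**Figure D3:**
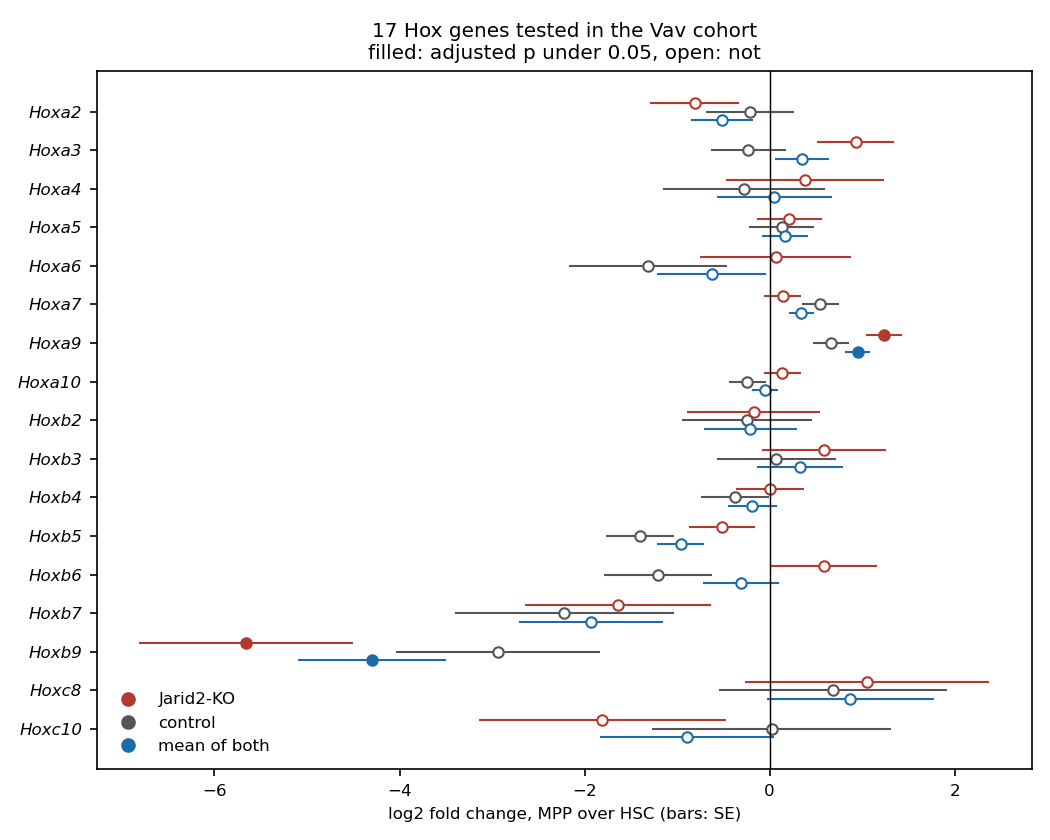
Log2 fold change of MPP over HSC with its SE for the 17 Hox genes tested in the Vav cohort, for Jarid2-KO, control and the mean of both (filled where the adjusted p is under 0.05). Hoxa9 lies to the right (0.95 in the mean) and Hoxb9 far to the left (-4.30), and the bars of the low genes are wide.

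The question of the knockout was whether loss of Jarid2 changed Hox RNA. By edgeR no Hox gene passed in any Vav comparison of Jarid2-KO with control. In HSC 0 of 17 passed, against 0.569% of all genes, with 3 at an unadjusted p under 0.05 and 2 called by DESeq2. In MPP 0 of 17 passed, against 0.948% of all genes, with 1 at an unadjusted p under 0.05 and 1 called by DESeq2. Over both cell types 0 of 17 passed, against 11.7% of all genes (6.56% higher and 5.16% lower). There 4 were at an unadjusted p under 0.05, and 2 were called by DESeq2. Of all 15818 genes, 2695 in HSC, 3055 in MPP and 4905 over both were at an unadjusted p under 0.05. Such a p was thus common among all genes. The median log2 difference of the 17 Hox genes was -0.04 in HSC, 0.21 in MPP and 0.25 over both, against -0.03, 0.02 and -0.00 for all genes. Cell-type markers differed between the genotypes too. The sum of 5 MPP markers was 641 to 952 CPM in Jarid2-KO MPP and 1466 to 1693 CPM in control MPP. The granulocyte-monocyte sum was 4811 to 17623 CPM in Jarid2-KO MPP and 3502 to 4694 CPM in control MPP, and 2474 to 6523 CPM in Jarid2-KO HSC and 932 to 2522 CPM in control HSC. Their part in this and the following knockout results was not tested. All 9 HoxD genes, like the other silent genes, had under 10 counts in every Jarid2-KO library. That bound follows from the definition of silent and does not test the knockout. The HoxD sum was 0 to 1.32 CPM in Jarid2-KO MPP and 0.176 to 0.546 CPM in control MPP. In HSC it was 0 to 0.598 CPM in Jarid2-KO and 0.3675 to 0.698 CPM in control.

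Hoxa7, a mid-cluster HoxA gene, had the smallest p over both cell types. It was at 60.9, 48.7 and 65.1 CPM in Jarid2-KO MPP, against 56.2, 53.1 and 43.2 CPM in control MPP. In HSC it was at 53.7, 58.1 and 48.3 CPM in Jarid2-KO, against 29.6, 31.5 and 38.8 CPM in control. The genotypes overlapped in MPP and did not in HSC. The difference was 0.41 over both cell types (SE 0.14, adjusted p = 0.0666) and 0.62 in HSC (SE 0.20, adjusted p = 0.164). Without Jarid2-KO MPP replicate 2 it passed over both (0.49, adjusted p = 0.0431), and DESeq2 called it (0.41, adjusted p = 0.0418).

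Hoxa3, a 3′ HoxA gene, was at 7.27, 8.74 and 7.35 CPM in Jarid2-KO MPP, against 6.39, 10.3 and 8.91 CPM in control MPP. In HSC it was at 4.88, 2.01 and 5.55 CPM in Jarid2-KO, against 5.37, 12.9 and 10.3 CPM in control. The genotypes overlapped in both cell types. The HSC difference was -1.29 (SE 0.42, adjusted p = 0.165, and 0.0434 by DESeq2). Hoxa2 showed no such difference, at 4.73, 2.09 and 3.11 CPM in Jarid2-KO HSC against 3.53, 1.28 and 2.13 CPM in control HSC.

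At the 5′ side of HoxB, Hoxb7, Hoxb8 and Hoxb9 had more counts in Jarid2-KO HSC. Hoxb9 had a summed 164 counts in Jarid2-KO HSC and 23 in control HSC, a ratio of 6.67 (exact 95% interval 4.30 to 10.8, counting error only). Its 3 Jarid2-KO HSC libraries (1.30, 3.43 and 3.11 CPM) were above the 3 control HSC libraries (0.588, 0.0582 and 0.514 CPM). The edgeR difference of 2.69 (SE 0.89) had an adjusted p of 0.171, and DESeq2 gave 0.0433.

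Hoxb7 gave 24, 27 and 18 counts in Jarid2-KO HSC, against 7, 0 and 11 counts in control HSC, a ratio of 3.59 (2.11 to 6.41). In MPP it gave 1, 11 and 4 counts in Jarid2-KO and 2, 2 and 0 counts in control. Over both cell types the difference was 2.09 (SE 0.78, adjusted p = 0.0880, and 0.0453 by DESeq2). Hoxb8 gave 12, 4 and 11 counts in Jarid2-KO HSC, against 5, 3 and 0 counts in control HSC, with overlap. It stayed under the filter and was not tested.

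Hoxb5 in MPP (values above) was higher in all 3 Jarid2-KO libraries than in the 3 controls (1.08, SE 0.36, adjusted p = 0.137, and 0.0459 by DESeq2), with its largest value in Jarid2-KO MPP replicate 1. Hoxb4 lay lower in all 3 Jarid2-KO HSC libraries than in the controls, and overlapped in MPP (-0.48 over both, SE 0.26, adjusted p = 0.223). Hoxb6 was at 1.82, 1.22 and 0.955 CPM in Jarid2-KO MPP, against 0.272, 0.695 and 0.794 CPM in control MPP. In HSC the order was turned, with 1.05, 0.710 and 0.944 CPM in Jarid2-KO, against 1.10, 1.34 and 1.51 CPM in control. Hoxb2 (0.278 to 2.64 CPM) and Hoxb3 (0.439 to 2.21 CPM) spread widely within groups. The difference of the knockout effect between MPP and HSC passed for 0 of 17 Hox genes and 0% of all genes. At an unadjusted p under 0.05 there were 1 Hox gene (Hoxb6) and 419 of all 15818 genes. DESeq2 called 0 Hox genes.

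**Figure D4:**
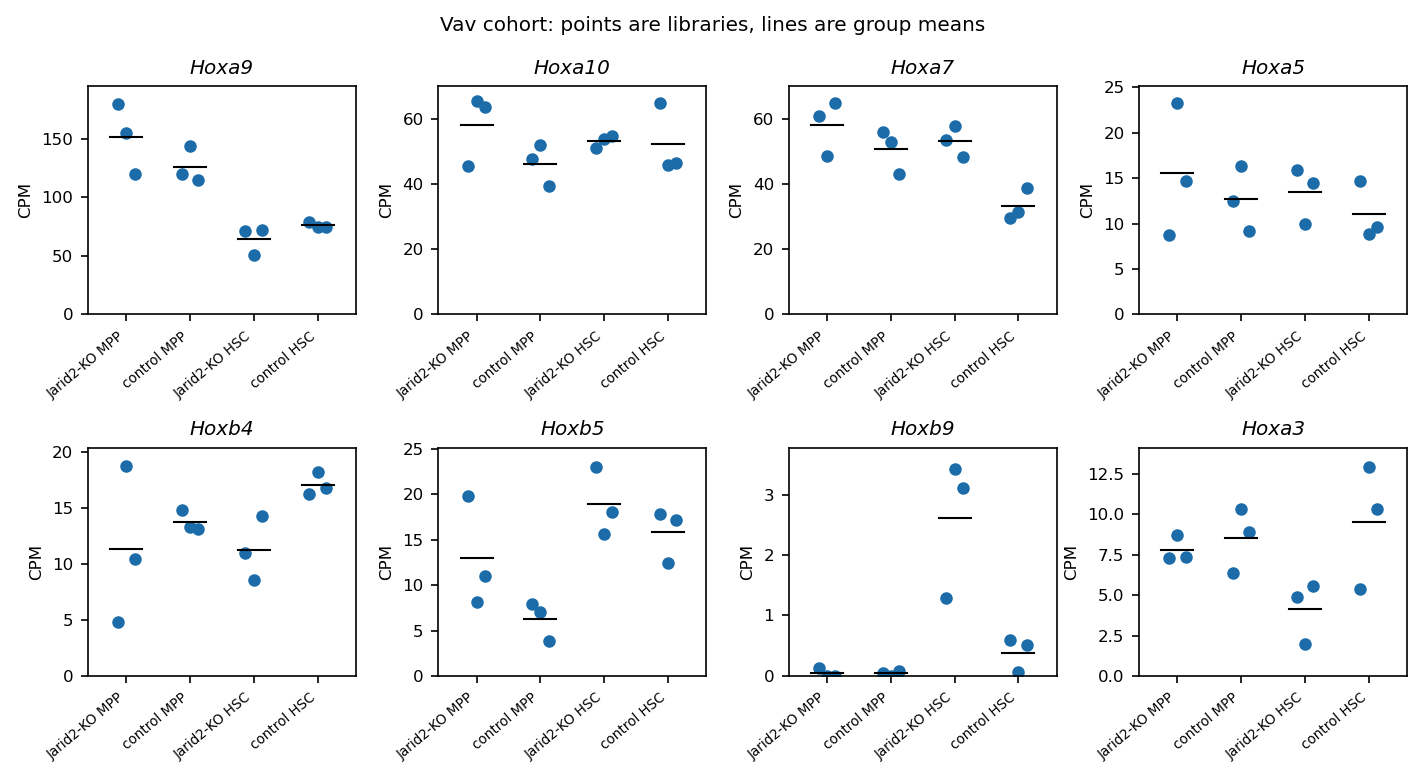
CPM of 8 Hox genes in the 12 Vav libraries (points) with group means (lines). Hoxa9 separates MPP from HSC in both genotypes, Hoxb9 is seen in Jarid2-KO HSC (1.30 to 3.43 CPM) above control HSC (0.0582 to 0.588 CPM), and Hoxa7 in Jarid2-KO HSC (48.3 to 58.1 CPM) above control HSC (29.6 to 38.8 CPM).

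In the Mx1 cohort the double mutant had more Hox RNA than Jak2V617F in every library. All Hox genes together summed to 79.6 to 171 CPM in the double mutant, against 14.0 to 26.6 CPM in Jak2V617F and 31.3 to 42.9 CPM in controls, without overlap between the 3 genotypes. By edgeR no single gene passed: 0 of 20 Hox genes tested passed for the double mutant against Jak2V617F over both cell types, where 0.449% of 19616 genes did. At an unadjusted p under 0.05 there were 6, against 1161 of the 19616 genes. DESeq2 called 4 Hox genes (Hoxa3, Hoxa9, Hoxa10 and Hoxb5). The median log2 difference was 2.53 over the 20 Hox genes and -0.06 over all genes. Within HSC 0 of 20 passed (0% of all genes, 3 unadjusted, 2 by DESeq2). Within MPP 0 of 20 passed (0% of all genes, 2 unadjusted, 0 by DESeq2). Of all genes 919 in HSC and 588 in MPP were at an unadjusted p under 0.05.

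Hoxa9 was at 31.0 and 39.5 CPM in double mutant MPP, against 6.03 and 3.90 CPM in Jak2V617F MPP and 8.15 and 6.36 CPM in control MPP. In HSC it was at 18.1 and 45.9 CPM in the double mutant, against 4.64 and 3.16 CPM in Jak2V617F and 2.61 and 9.51 CPM in control. All 4 double mutant libraries lay above all 8 others. Against Jak2V617F the difference was 2.72 (SE 0.57, adjusted p = 0.0614).

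Hoxa10 was at 19.4 and 23.7 CPM in double mutant MPP, against 1.34 and 3.72 CPM in Jak2V617F MPP and 1.98 and 2.37 CPM in control MPP. In HSC it was at 18.7 and 32.7 CPM in the double mutant, against 1.67 and 1.20 CPM in Jak2V617F and 0.850 and 6.11 CPM in control. It showed the same separation, at 3.43 against Jak2V617F (SE 0.73, adjusted p = 0.0615). Both Hoxa9 and Hoxa10 passed without control MPP replicate 1 (adjusted p = 0.0202 and 0.0200), without control MPP replicate 2 (0.0173 and 0.0179) and without double mutant HSC replicate 1 (0.0277 and 0.0416). They also passed without the filter on low counts (0.00417 and 0.00166) and with a term for heart-rich libraries (0.000283 and 0.000236). In 12 of the 18 alternative fits neither gene passed. Across the 18 the log2 difference ranged over 2.44 to 3.00 for Hoxa9 and 3.21 to 3.93 for Hoxa10.

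Hoxa5 was at 4.83 and 4.58 CPM in double mutant MPP and 6.79 and 6.98 CPM in double mutant HSC, against at most 2.56 CPM in Jak2V617F and 2.09 CPM in control. Hoxb5 was at 5.69 and 6.49 CPM in double mutant MPP and 6.26 and 12.6 CPM in double mutant HSC, against at most 1.03 CPM in Jak2V617F, while control HSC replicate 1 reached 5.82 CPM. Hoxa7 was at 9.95 and 27.3 CPM in double mutant MPP and 16.6 and 43.9 CPM in double mutant HSC, against 3.90 to 7.95 CPM in Jak2V617F and 2.05 to 13.8 CPM in controls, which overlap with the double mutant. The 3 genes' differences from Jak2V617F (2.44, 3.75 and 1.90) did not pass, with adjusted p of 0.623, 0.594 and 0.517.

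Hoxb4 overlapped between the double mutant (6.44 to 14.5 CPM) and Jak2V617F (2.16 to 7.87 CPM), and lay above the controls (3.38 to 5.61 CPM). Hoxa3 was read in all 4 double mutant libraries (0.591 to 3.54 CPM) and hardly elsewhere. In HSC it had 42 summed counts in the double mutant and 0 in Jak2V617F. Set against a floor of 3 counts over the Jak2V617F group, this is 15.03-fold higher. The floor covers counting error in the 0 only, and no lower limit was put on the 42. The double mutant HSC libraries were uneven, at 0.591 and 3.54 CPM.

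Jak2V617F against control gave 0 of 20 Hox genes in HSC, in MPP and over both (0% of all genes each), with 0 at an unadjusted p under 0.05 in each and 0 by DESeq2. The median difference over both was -0.78 for the Hox genes and 0.05 for all genes. The double mutant against control gave 0 of 20 in HSC and in MPP (0% of all genes each). In each 3 were at an unadjusted p under 0.05, against 1249 of all genes in HSC and 924 in MPP. DESeq2 called 0 Hox genes in HSC and 1 in MPP. Hoxa9 stood at 2.06 in both cell types and Hoxa10 at 2.59 in HSC and 3.11 in MPP. These comparisons share the double mutant or the control libraries with those above. MPP against HSC gave 0 of 20 over all genotypes and in controls (0% of all genes each), with 0 at an unadjusted p under 0.05 and 0 by DESeq2.

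Other RNAs moved with the genotype in these libraries. The sum of 8 HSC markers was 477 to 1238 CPM in the double mutant, 69.2 to 210 CPM in Jak2V617F and 70.3 to 221 CPM in control, and the granulocyte-monocyte sum ran the other way (2064 to 5859, 14110 to 34381 and 12203 to 50644 CPM). Their part in the Hox difference was not tested. In the Vav cohort the sum of the HSC markers was 1263 to 1487 CPM in HSC and 883 to 1631 CPM in MPP. That sum thus did not separate HSC from MPP there. Among libraries with over 4% heart muscle RNA, Hoxa9 was at 18.1 to 31.0 CPM in the double mutant and 3.16 to 6.03 CPM in Jak2V617F. Among those below 4% it was at 39.5 to 45.9 CPM in the double mutant and 4.64 CPM in the 1 Jak2V617F library. Hoxa10 was likewise at 18.7 to 19.4 against 1.20 to 3.72 CPM above that limit, and at 23.7 to 32.7 against 1.67 CPM below it.

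**Figure D5:**
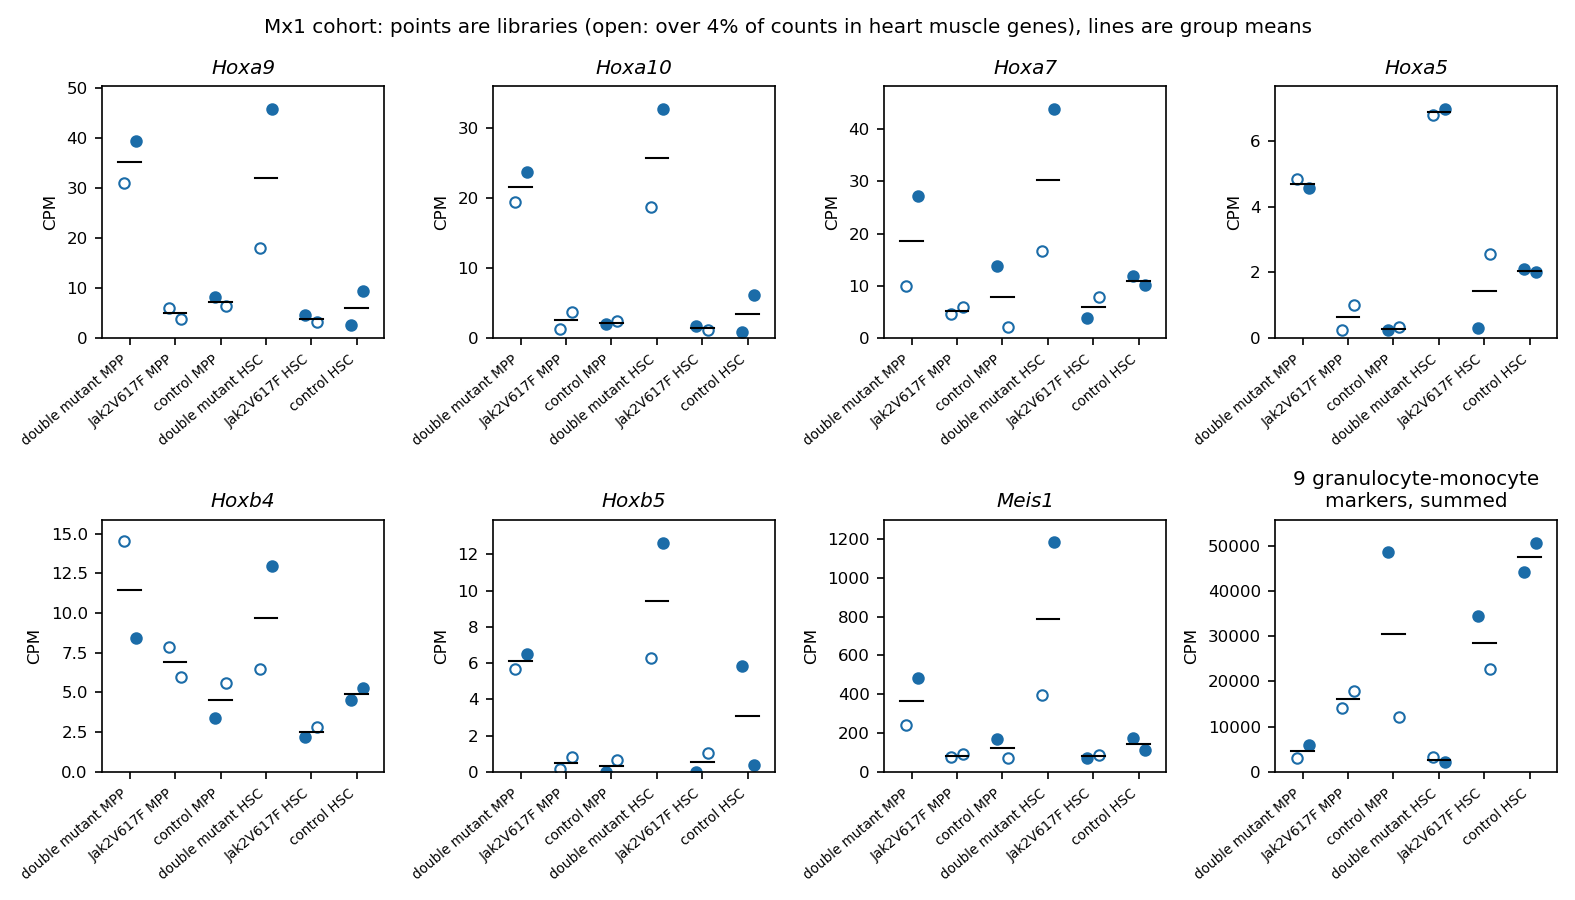
CPM in the 12 Mx1 libraries (points, open where over 4% of counts are heart muscle genes) with group means (lines), for 6 Hox genes, Meis1 and the sum of 9 granulocyte-monocyte markers. Hoxa9 and Hoxa10 are at 18.1 CPM or more in every double mutant library, against at most 9.51 CPM elsewhere, and the marker sum is lowest in the double mutant.

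Hox proteins bind DNA with the TALE cofactors of the Pbx, Meis and Pknox families. Pbx3 was lower in MPP than in HSC in the Vav cohort over both genotypes, where it fell by 1.41 on the log2 scale (SE 0.24, adjusted p = 0.00471), a call that held in 18 of 18 alternatives. Within Jarid2-KO Pbx3 passed (-1.70, SE 0.35, adjusted p = 0.0497), a call kept, among the leave-outs, only without Jarid2-KO MPP replicate 3 (adjusted p up to 0.156 in the others). It was also lost with only the groups compared (adjusted p = 0.407), with DESeq2's size factors (0.0552) and with a minimum count of 20 (0.0502).

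In Jarid2-KO against control over both cell types, 3 of 8 cofactors passed, where 11.7% of all genes did. Pbx3 was at 1.69, 2.34 and 3.63 CPM in Jarid2-KO MPP, against 6.62, 7.39 and 8.33 CPM in control MPP. In HSC it was at 7.32, 7.65 and 9.89 CPM in Jarid2-KO, against 19.8, 10.3 and 16.9 CPM in control. The genotypes did not overlap in either cell type. Over both it fell (-1.27, SE 0.24, adjusted p = 0.00815), and that call held in 17 of 17 alternatives. Within HSC (-0.98, SE 0.33, adjusted p = 0.178) and within MPP (-1.56, SE 0.35, adjusted p = 0.0532) it did not pass. Pbx2 rose (0.85, adjusted p = 0.0199), a call lost without control HSC replicate 2, control MPP replicate 3 or Jarid2-KO HSC replicate 2 (adjusted p up to 0.0636). Meis3 rose (1.32, adjusted p = 0.0362), a call kept, among the leave-outs, only without control MPP replicate 2, Jarid2-KO MPP replicate 2 or Jarid2-KO MPP replicate 3 (adjusted p up to 0.101 in the others).

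Meis1, the Hoxa9 partner, was at 712 to 997 CPM in Vav Jarid2-KO and 925 to 1377 CPM in Vav control. Over both Vav cell types its difference by edgeR was -0.47 (SE 0.15, adjusted p = 0.0573), which did not pass. In the Mx1 cohort it was at 241 and 486 CPM in double mutant MPP, against 75.0 and 90.8 CPM in Jak2V617F MPP and 169 and 73.0 CPM in control MPP. In HSC it was at 396 and 1183 CPM in the double mutant, against 73.2 and 86.8 CPM in Jak2V617F and 172 and 115 CPM in control. All 4 double mutant libraries lay above the others, as for Hoxa9. It was the 1 of 9 cofactors to pass for the double mutant against Jak2V617F over both cell types, where 0.449% of all genes did (2.52, SE 0.49, adjusted p = 0.0445). The call was lost with a minimum count of 20 (adjusted p = 0.0584) and was kept, among the leave-outs, only without either control MPP library, double mutant HSC replicate 1 or double mutant MPP replicate 1 (adjusted p up to 0.247 in the others).

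Non-coding genes lie between the Hox genes, and 6 of those listed were tested in each cohort. In Jarid2-KO against control over both Vav cell types, 2 of the 6 rose and 1 fell, where 11.7% of all genes passed. Gm53 (ENSMUSG00000078706), a non-coding gene at chr11:96251105-96264868 between Hoxb13 and Hoxb9, gave 6, 1 and 13 counts in Jarid2-KO MPP, against 0, 1 and 2 counts in control MPP. In HSC it gave 46, 40 and 34 counts in Jarid2-KO, against 2, 1 and 3 counts in control. The genotypes did not overlap in HSC and overlapped in MPP. Over both cell types it passed (3.73, SE 0.74, adjusted p = 0.0103), and that call held in 17 of 17 alternatives. It did not pass within HSC (4.09, SE 1.01, adjusted p = 0.0882) or within MPP (3.36, SE 1.10, adjusted p = 0.129). It lies on the 5′ side of Hoxb9, with the miRNA gene Mir196a-1 between them.

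Hotairm1, an antisense RNA at the 3′ end of HoxA, rose over both cell types (1.89, SE 0.52, adjusted p = 0.0340), with 14 to 37 counts in Jarid2-KO HSC and 3 to 10 in control HSC. Hoxb3os fell over both (-1.44, SE 0.36, adjusted p = 0.0262), with 33 to 57 counts in Jarid2-KO HSC and 92 to 111 in control HSC. Its overlap partner Hoxb3 was at -0.97 (SE 0.47, adjusted p = 0.176) and shares exonic bases with it. The Hotairm1 call was lost without control HSC replicate 2 or 3, any control MPP library, or Jarid2-KO HSC replicate 1 or 2 (adjusted p up to 0.0957). The Hoxb3os call was lost without control HSC replicate 2, any control MPP library, or Jarid2-KO HSC replicate 2 or 3 (adjusted p up to 0.0693). Within HSC 0 of the 6 non-coding genes passed by edgeR, against 0.569% of all genes. There 3 were at an unadjusted p under 0.05, and 1 was called by DESeq2. Within MPP 0 of 6 passed, against 0.948% of all genes, with 4 and 2. Of all 15818 genes 2695 in HSC and 3055 in MPP were at an unadjusted p under 0.05. The miRNA genes of the clusters had at most 6 counts (Mir10a) in any library.

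Of 13 known regulators of Hox clusters tested in the Vav cohort, 2 rose and 1 fell in Jarid2-KO over both cell types, where 11.7% of all genes passed. Mllt1, an MLL fusion partner in leukaemia, rose (1.02, SE 0.27, adjusted p = 0.0300), a call lost without control HSC replicate 2 or 3, control MPP replicate 2 or 3, or Jarid2-KO HSC replicate 2 (adjusted p up to 0.0941). Men1, which encodes the MLL cofactor menin, rose (0.94, SE 0.27, adjusted p = 0.0415), a call kept, among the leave-outs, only without control HSC replicate 3 or any one Jarid2-KO MPP library (adjusted p up to 0.106 in the others). Kmt2a fell (-0.46, SE 0.14, adjusted p = 0.0434), a call lost with no filter on low counts (adjusted p = 0.0789) and kept, among the leave-outs, only without Jarid2-KO MPP replicate 2 or 3 (adjusted p up to 0.120 in the others).

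Between MPP and HSC over both genotypes 1 of the 13 regulators passed, where 3.44% of all genes did. This was Mllt3, another MLL fusion partner, which was lower in MPP (-0.78, SE 0.18, adjusted p = 0.0265). That call was kept, among the leave-outs, only without control HSC replicate 3 or any one Jarid2-KO MPP library (adjusted p up to 0.0802 in the others). Of 12 PRC2 genes 0 passed by edgeR in any Vav comparison, and the knockout over both cell types gave 4 at an unadjusted p under 0.05 and 2 by DESeq2. Of 10 genes that flank the clusters 0 passed by edgeR in any Vav comparison. The same knockout comparison gave 5 at an unadjusted p under 0.05 and 0 by DESeq2. In that comparison 11.7% of all genes passed, and 4905 of 15818 were at an unadjusted p under 0.05. In the Mx1 cohort 0 of 6 non-coding genes, 0 of 14 regulators, 0 of 12 PRC2 genes and 0 of 11 flanking genes passed by edgeR in any comparison. Of all genes 0.449% passed for the double mutant against Jak2V617F over both cell types, and 0% in every other Mx1 comparison. These zeros thus do not set the lists apart from all genes. In the former comparison 2, 1, 0 and 1 of these lists were at an unadjusted p under 0.05, against 1161 of all 19616 genes. DESeq2 called 0 of each list there.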

How the data were processed

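Gene tables were deposited for 12 Vav and 12 Mx1 RNA-seq libraries, made with the SMARTer Ultra Low kit per the labels' protocols. Per the file headers they hold the authors' raw read counts, CPM and RPKM per gene. The submitters' processing notes name STAR 2.0.4, Subread, featureCounts 1.4.5, HTSeq 0.8.0, Partek 6.6 and mm10, without role or order, and strand use is not given in the sources used here. Deposited CPM were recomputed from the deposited counts with a largest difference of 0.

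Each cohort was fitted on its own in R 4.3.3 with edgeR 4.0.16 (limma 3.58.1): filterByExpr (minimum count 10, total 15), TMM scaling and a robust quasi-likelihood test with 1 mean per group, with Benjamini-Hochberg adjustment over all genes tested and a threshold of 0.05. The SE is the absolute log2 fold change divided by the square root of F. Of the 38 Hox genes 17 of 15818 genes tested were kept in Vav and 20 of 19616 in Mx1, so counts and medians of tested members leave out those under the filter. A gene can also be kept through a single group where it is high, so these medians do not test a shift of the set. The code was tested on simulated data. DESeq2 1.42.0 was an alternative, as were other scaling and filters, only the groups compared, a replicate block, a term for libraries with over 4% heart muscle genes, and leaving out each library.

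Count ratios carry exact conditional 95% intervals. All Hox genes were accounted for: expressed genes with values, those passing with fold, SE and adjusted p, and silent genes with their largest count. Of the other lists, genes that passed were named, with the exception below, up to 4 per list and comparison. The Hox genes were taken by name, but describing them, and the other lists and the classes, were chosen with earlier results of these data known. Some genes of these lists are not reported here.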

Additional observations from a re-analysis of the deposited data

Results flagged for a closer look

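For 2 genes every library of a group in one cell type moved one way relative to the controls and the other way in the other cell type. On the log2(CPM + 0.1) scale Hoxb6 in Vav Jarid2-KO against control differed by 1.11 in MPP and by -0.51 in HSC, a difference of 1.62 between the cell types. The edgeR test of that difference gave 1.80 (SE 0.82, unadjusted p = 0.0456, adjusted p = 1.00). Hoxb4 in Mx1 Jak2V617F against control differed by 0.64 in MPP and by -0.95 in HSC, a difference of 1.59 that was not tested, with 2 libraries in each group.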

How the results depend on the processing

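For single Hox genes 38 comparisons were followed, picked because they had an unadjusted p under 0.05 in the main fit or a call in some fit. They kept their direction in all 690 alternative fits, which that choice makes likely. Of these fits 637 stayed on the same side of the threshold, 15 lost and 38 gained a call. For calls gained or lost the cause was not tested. Numbers of Hox genes called changed as follows. DESeq2 called 2 (edgeR 0) for Jarid2-KO against control in HSC, 1 (0) in MPP and 2 (0) over both. For Vav control MPP against HSC it was 1 with no filter, 2 with only the groups compared and 1 by DESeq2 (0), and for Jarid2-KO MPP against HSC 1 under the replicate block, 1 under the block by pool and 0 with only the groups compared (2). For the Mx1 double mutant against Jak2V617F it was 2 with the heart term and 2 by DESeq2 in HSC (0), and 2 with no filter, 2 with the heart term and 4 by DESeq2 over both (0). For the double mutant against control it was 1 with the heart term in HSC (0), and 1 with the heart term and 1 by DESeq2 in MPP (0).

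Leaving out a library gave 0 to 1 Hox genes for Jarid2-KO against control over both cell types, 0 to 2 for control MPP against HSC, 0 to 2 for Jarid2-KO MPP against HSC, 2 to 3 for MPP against HSC over both genotypes and 0 to 2 for the double mutant against Jak2V617F over both. Trace genes in Vav numbered 11 at a limit of 2 CPM and 14 with silent meaning under 5 counts (7), silent genes then 12 (19), and expressed genes in Mx1 12 at 0.5 CPM (7). Leaving out a library gave 7 to 17 expressed and 7 to 16 trace genes in Mx1.

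Whether replicate numbers pair the samples was not settled. Deviations of same-numbered libraries, including those of different genotypes, correlated at -0.254 to 0.299 in Vav and -0.543 to 0.523 in Mx1. For same-numbered HSC and MPP of the same genotype the range was -0.0091 to 0.299 in Vav and -0.0157 to 0.523 in Mx1. With 2 libraries in each Mx1 group, a correlation there only mirrors that of the mismatched pair. For MPP against HSC over both genotypes 3 Hox genes were called in place of 2, with Hoxb5 added, under the replicate block (adjusted p = 0.0325), the block by pool (0.0267), no filter (0.00470) and DESeq2 (0.00755). The Hoxb9 call in Jarid2-KO MPP against HSC was lost under the replicate block (0.0993) and the block by pool (0.0647), as was that of Pbx3 (0.0656 and 0.0627). The replicate block also took Hotairm1 (0.0558), Meis3 (0.0567), Men1 (0.0665) and Kmt2a (0.0686) in Jarid2-KO against control over both cell types, and Meis1 in the Mx1 cohort (0.0834), above 0.05. A crossed block for the Mx1 pairs, chosen after seeing the data, gave 0.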

Other observations

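Gm53, which was higher in Vav Jarid2-KO, had scattered counts in the Mx1 cohort. It gave 11 and 2 counts in double mutant MPP, against 99 and 22 in Jak2V617F MPP and 0 and 0 in control MPP. In HSC it gave 26 and 0 counts in the double mutant, against 0 and 29 in Jak2V617F and 0 and 1 in control. Hotairm1 was read in 2 of the 12 Mx1 libraries, with 9 counts in double mutant HSC replicate 2 and 5 in control MPP replicate 1. Hoxb3os gave 20 and 5 counts in double mutant MPP and 35 and 20 in double mutant HSC, against at most 3 counts in Jak2V617F and 6 in control.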
